A study of Mus musculus with 24 samples.

Results

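The transcripts of cerebella without Derlin-1 were compared between mice injected with 4-phenylbutyrate (4PBA) and mice that were not. The comparison was defined by sample titles and covers 8 of the 24 arrays of the series: 4 knockout (KO) arrays labelled 4PBA, numbered 1 and 2 or lettered a and b, and 4 KO arrays without 4PBA with the same numbers and letters. The 8 Derlin-1 control arrays served to place each KO level between the control and the untreated KO level. Of the other arrays, 8 came from a Derlin-2 line and entered only the shared estimate of the spread.

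The KO mice carried a floxed Derl1 gene and Cre recombinase under the promoter of nestin, a gene active in progenitors of neurons and glia, so microglia and blood cells lie outside its usual lineage. Controls carried the same floxed gene without Cre, and the labels place all mice on a C57BL/6 background. On the numbered slide mice received 200 mg/kg 4PBA or water as vehicle, injected into the abdomen daily between postnatal day 14 and day 28. On the lettered slide the 4PBA arrays are labelled with the same dose and days. The lettered arrays without 4PBA name no vehicle, so they are called arrays without 4PBA here, together with the vehicle arrays. All mice were killed at day 28. No label says whether arrays of a group came from separate mice, so each p-value measures the spread between these samples, which may be technical.

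Derlin-1 is a membrane protein of the endoplasmic reticulum (ER) that takes part in ER-associated degradation, in which misfolded proteins are moved to the cytosol and destroyed by the proteasome. When unfolded proteins build up, the unfolded protein response raises ER chaperones through ATF6 and XBP1 and a set of amino acid and stress genes through the PERK kinase and the transcription factors ATF4 and CHOP. 4PBA is a small aromatic fatty acid that is used as a chemical chaperone, which eases protein folding, and it also inhibits histone deacetylases.

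Levels are log2 intensities minus the 75th percentile of the array, and every change is a difference of such levels. Each difference was taken within a slide and averaged over both slides, and genes were called where limma gave an adjusted p under 0.05 over all genes. Between 60.66% and 68.42% of spots were well above background on the KO arrays, and 15129 of the 16935 genes tested were well above background on all 8. KO arrays occupied the last columns of each slide and 4PBA arrays a separate row, so slide position and group cannot be told apart.

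The array labelled KO 4PBA b stood apart from the other 3 KO 4PBA arrays. The targeted gene did not show its genotype: Derl1 had levels of 0.89 and 0.70 on KO arrays 1 and 2 without 4PBA, 0.14 and 0.84 on a and b, 0.94 and 0.88 on KO 4PBA arrays 1 and 2, and 0.64 and 0.93 on a and b. Controls without 4PBA had 0.89, 0.94, 1.22 and 0.84, so this probe did not separate KO from control on either slide. The position of the probe relative to the deleted part of the gene is not given in the sources used here. Derl3, the stress-induced member of the family, did separate them, with -0.32, -0.30, -0.09 and 0.37 on KO arrays without 4PBA and -2.87, -2.29, -2.01 and -1.69 on controls. On KO 4PBA arrays 1, 2 and a it had -0.63, -0.30 and 0.17, but on the array labelled KO 4PBA b it had -2.27, below both lettered controls without 4PBA. Control-like levels on this array could belong to a response to 4PBA or to a sample of another genotype, and these probes cannot tell them apart. Results are therefore given with and without the array labelled KO 4PBA b.

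To place each 4PBA array without using its own slide for the choice, the 100 genes most raised and the 100 most lowered by the KO without 4PBA were chosen on one slide and read on the other. On the numbered slide, the genes chosen as higher had a median of 1.36 and 1.39 above the slide's controls on KO arrays 1 and 2 without 4PBA, and of 1.40 and 1.18 on KO 4PBA arrays 1 and 2. The genes chosen as lower had -0.78 and -0.90 without 4PBA and -0.71 and -0.76 with it. Both 4PBA arrays of the numbered slide thus lay nearer to the KO arrays without 4PBA than to the controls without it. Against the controls with 4PBA the difference was smaller: the median KO effect of the higher genes was 1.09 under 4PBA and 1.38 without, and that of the lower genes -0.62 and -0.86. The controls with 4PBA themselves had -0.02 and 0.21 for the higher and -0.03 and -0.13 for the lower genes. The level was nearer to the KO mean than to the control mean for 94 and 84 of the 100 higher genes on KO 4PBA arrays 1 and 2, and for 75 and 84 of the 100 lower genes.

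On the lettered slide the 2 arrays labelled KO 4PBA differed from each other as KO from control. The higher genes had medians of 1.75 and 1.38 on KO arrays a and b without 4PBA, 1.45 on KO 4PBA array a and -0.09 on the array labelled KO 4PBA b. For the lower genes these medians were -1.04 and -0.79, then -0.83 on a and 0.05 on b. Array a was nearer to the KO mean for 98 of 100 higher and 84 of 100 lower genes. The array labelled KO 4PBA b was nearer to the control mean for 98 of 100 higher and 91 of 100 lower genes, and the 2 lettered controls with 4PBA for 97 and 98 of the higher and 92 and 93 of the lower genes. The median 4PBA change of the higher genes was -0.89 on the lettered slide with both arrays and -0.16 without the array labelled KO 4PBA b. For the lower genes it was 0.56 and 0.16. On the numbered slide the medians were -0.12 for the higher and 0.06 for the lower genes, beside -0.03 over all genes measured there.

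**Figure D1:**
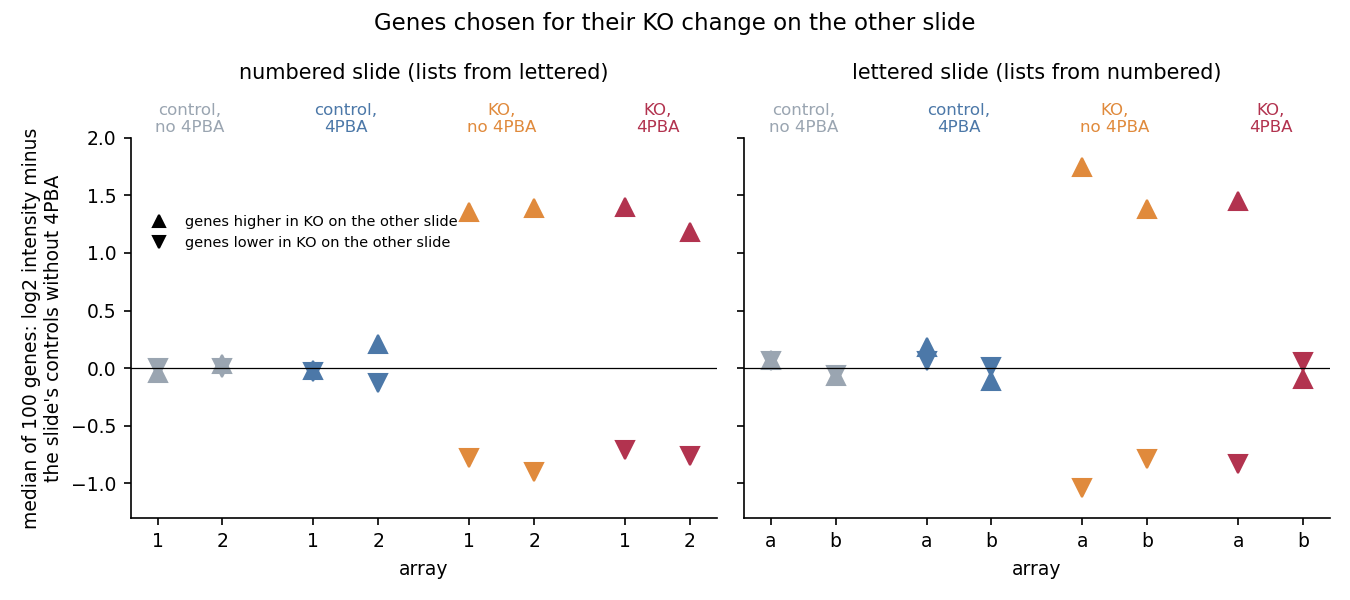
Median log2 intensity, relative to the mean of the slide's controls without 4PBA, of 100 genes higher (upward triangles) and 100 genes lower (downward triangles) in KO on the other slide, for each of the 16 Derlin-1 arrays. KO 4PBA arrays 1, 2 and a sit beside the KO arrays without 4PBA, with medians of the higher genes from 1.18 to 1.45, and the array labelled KO 4PBA b sits at -0.09 with the controls.

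In the KO mice few transcripts were called for 4PBA. With all arrays 6 genes were called (0.0354% of those tested), 5 higher and 1 lower, while 1127 had an unadjusted p under 0.05. Without the array labelled KO 4PBA b 10 genes were called (0.0591%), all higher, and 531 had an unadjusted p under 0.05. With the slides taken alone, 5 genes were called on the numbered slide (0.0295%), and 2 on the lettered slide (0.0118%), or 7 without the array labelled KO 4PBA b (0.0413%). In controls 4PBA changed 5 genes (0.0295%). For comparison, the KO without 4PBA changed 1800 genes (10.6%), 890 higher and 910 lower. With the slides taken alone, the KO was called for 2 of 16935 genes on the numbered slide and 599 on the lettered slide. The numbered slide thus gave fewer calls for the KO than for 4PBA, so few calls there do not show a small effect. The calls for 4PBA depended on which lettered 4PBA array was kept: without array a in place of b, 193 genes were called (1.14%), 48 higher and 145 lower. The count was 3 without KO array a and 94 without KO array b, both without 4PBA, 14 and 10 without KO vehicle array 1 or 2, and 15 and 21 without KO 4PBA array 1 or 2. In controls it was 10 without vehicle array 1, 3 without array a that had no 4PBA, and 23 and 25 without 4PBA array 1 or 2. For the KO without 4PBA it was 654 without KO array a and 2788 without KO array b, and lay from 782 to 998 without KO vehicle array 1 or 2, control vehicle array 2 or control array a.

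Whether 4PBA undid the knockout was asked directly by comparing the KO effect under 4PBA with that without it. This difference was called for 2 genes with all arrays (0.0118%), Gm28729 and Olfr769, neither of which was well above background on more than 2 of the 16 arrays. It was called in limma for 0 genes with normexp background correction (373 at an unadjusted p under 0.05) and for 0 among probes well above background on all 16 arrays (340). Without the array labelled KO 4PBA b it was called for 5 genes (0.0295%): Cnih3, Gm28729, Gm29999, Obox5 and Olfr769. Cnih3 was the only one of them well above background on all 16 arrays. Of the genes the KO changed without 4PBA, 1 was called in the opposite direction for 4PBA in KO mice, with or without that array, and it was Cnih3 in both cases. Without array a in place of b there were 169. The count of genes with a called difference was 31 without KO 4PBA array a, 12 without control 4PBA array 2 and from 2 to 7 without any other array. These counts share the KO arrays without 4PBA, so the directions of the 2 changes are not independent.

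Cnih3 encodes cornichon 3, an auxiliary protein of AMPA-type glutamate receptors. Its levels were -3.31, -3.21, -2.60 and -2.94 on control arrays 1, 2, a and b without 4PBA and -4.34, -4.43, -4.19 and -4.10 on the matching KO arrays. With 4PBA the KO arrays had -3.57, -3.79, -2.20 and -2.85. All 4 KO 4PBA arrays thus lay above all 4 KO arrays without 4PBA, those of the numbered slide short of their controls and array a above its controls. The KO without 4PBA lowered Cnih3 by a log2 change of -1.25 (SE 0.15, adjusted p 0.00203 in limma), and in KO mice 4PBA raised it by 1.16 (SE 0.15, adjusted p 0.00737 in limma). Without the array labelled KO 4PBA b the 4PBA change was 1.32 (SE 0.14, adjusted p 0.0015 in limma), the difference from controls given 4PBA 0.06 (SE 0.14, adjusted p 0.888 in limma), and the change of the KO effect 1.31 (95% interval 0.90 to 1.72, adjusted p 0.0355 in limma). In controls 4PBA left Cnih3 at -3.13, -2.99, -2.76 and -3.11, a change of 0.02. Over 15 alternative settings the 4PBA change lay between 0.75 and 1.32 and was called in 13, with adjusted p from 0.0015 to 0.0694 in limma. It was not called with the normexp background correction, where it was 0.75 (adjusted p 0.0626 in limma), or without KO array a without 4PBA, where it was 1.14 (adjusted p 0.0694 in limma).

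The other genes called with all arrays were dim. Aox4, an aldehyde oxidase, had -2.81 and -4.55 on KO 4PBA arrays 1 and 2, but no KO array without 4PBA was well above background, nor was either lettered array with 4PBA. On the numbered slide it was at least 4.76-fold higher with 4PBA. Its call held in 8 of 14 alternative settings (adjusted p from 0.00154 to 0.446 in limma) and was lost with a replicate block (0.124) and with only the 16 Derlin-1 line arrays (0.0701). The predicted genes Gm28729 and Gm30993 had the same pattern, with -3.58 and -3.03 and with -3.86 and -4.38 on those 2 arrays, at least 6.18-fold and 3.51-fold higher. 1700065J11Rik was seen on the lettered 4PBA arrays alone, at -3.96 and -3.95, at least 4.81-fold higher there. Each bound sets the bright group's mean against, on each dim array, the weakest probe that was well above background or the probe's own signal, whichever is higher. None of these 4 was seen on both slides. Among the KO arrays each was well above background only in the 4PBA group of 1 slide, and 1 such group was enough to keep a probe. Hspa1l, a relative of the inducible heat shock protein Hsp70, was the one gene called lower, by -0.73 (SE 0.11, adjusted p 0.0371 in limma), and was well above background on both lettered but neither numbered KO 4PBA array, so that on the numbered slide it was at least 1.06-fold lower. Its change without the array labelled KO 4PBA b was -0.70 (SE 0.13, adjusted p 0.142 in limma), and it was called in 7 of 14 alternative settings. The calls of Gm28729, Gm30993 and 1700065J11Rik each held in 13 of 14. All 3 were lost with normexp background correction. There their changes of 2.49, 2.27 and 2.48 became 0.58, 0.47 and 0.50 (adjusted p 0.2, 0.478 and 0.207 in limma). In controls the levels of Hspa1l with 4PBA were -5.80 and -6.17 on the numbered slide, below -5.24 and -5.31 without.

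Without the array labelled KO 4PBA b, 5 genes were added: Nrgn, Tcf7l2, Trpv6, Obox5 and Gm29999. Nrgn encodes neurogranin, a calmodulin-binding protein of forebrain neurons. It had -3.88, -3.29, -3.32 and -3.00 on KO arrays without 4PBA and -1.84, -2.41, 0.11 and -2.91 on KO 4PBA arrays 1, 2, a and b. All 4 lay above every KO array without 4PBA, array a the furthest and the array labelled KO 4PBA b by the least. Its 4PBA change was 2.36 (SE 0.36, adjusted p 0.0298 in limma) without the array labelled KO 4PBA b and 1.61 (SE 0.51, adjusted p 0.692 in limma) with it. Without KO 4PBA array a in place of b it was 0.85 (adjusted p 0.322 in limma).

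Tcf7l2 encodes a transcription factor of Wnt signalling that is abundant in thalamus and midbrain. It had -0.52, -0.40, -0.70 and -0.74 on KO arrays without 4PBA and 0.25, 0.10, 0.79 and -1.01 on those with it. Its change was 1.07 (SE 0.15, adjusted p 0.0165 in limma) without the array labelled KO 4PBA b and 0.62 (SE 0.27, adjusted p 0.734 in limma) with it, and without array a in place of b it was 0.17 (adjusted p 0.707 in limma). Of its 4 probes, 3 had 4PBA changes of 0.62 to 0.84 with all arrays and the other -0.08. Trpv6, an epithelial calcium channel, had -3.14, -3.37, -3.97 and -3.35 without and -2.74, -2.82, -1.84 and -2.85 with 4PBA, so that in this gene the array labelled KO 4PBA b also lay above all KO arrays without 4PBA. Its change was 1.15 (SE 0.17, adjusted p 0.0261 in limma) without that array and 0.64 (adjusted p 0.101 in limma) without array a in place of it. Over 15 alternative settings Nrgn and Tcf7l2 were called in 1 and Trpv6 in 2. None of these 3 genes was called in the KO without 4PBA, so none was a knockout change undone. Obox5 and Gm29999 were dim, with levels well above background on 3 and 1 of the KO arrays.

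**Figure D2:**
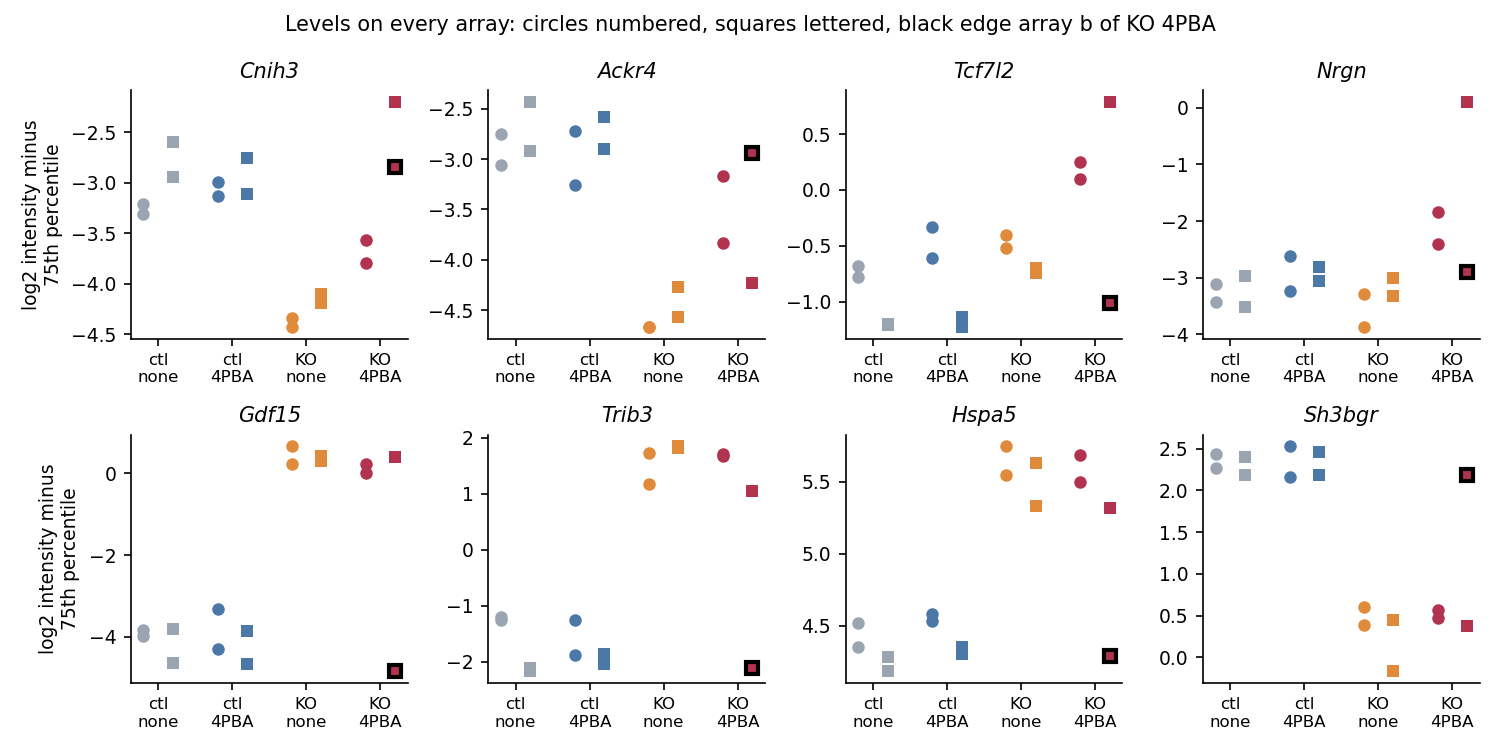
Log2 intensity minus the array's 75th percentile of 8 genes on the 16 Derlin-1 arrays, by genotype and treatment, with circles for the numbered and squares for the lettered slide and a black edge on the array labelled KO 4PBA b. Cnih3 with 4PBA lies above all KO arrays without it, whereas Gdf15, Trib3, Hspa5 and Sh3bgr on arrays 1, 2 and a stay with the KO arrays and array b sits with the controls.

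Below the threshold of the adjusted test, 266 genes were higher and 605 lower by an unadjusted p under 0.05, in the same direction on both slides and in array a alone, among genes well above background on all 8 KO arrays. The 10 with the highest and the 10 with the lowest change are described here as a ranking, since the rule chose them by this contrast. Ackr4, a scavenging receptor for chemokines, was 1 of the 8 genes most lowered by the KO, by -1.76 (SE 0.24, adjusted p 0.00203 in limma). It had -4.67, -4.67, -4.57 and -4.27 on KO arrays without 4PBA and -3.17, -3.83, -4.23 and -2.94 with it, against -3.06, -2.75, -2.43 and -2.92 in controls. The numbered 4PBA arrays lay between KO and control, while array a was close to KO array b without 4PBA and the array labelled KO 4PBA b was among the controls. Its 4PBA change was 1.0 (SE 0.24, adjusted p 0.414 in limma), or 0.68 (95% interval 0.27 to 1.09, adjusted p 0.954 in limma) without the array labelled KO 4PBA b. Car4, a membrane-bound carbonic anhydrase, had 0.20, -0.19, -0.70 and 1.12 without and 0.65, 0.47, 0.88 and 2.29 with 4PBA, so that KO array b without 4PBA overlapped the treated arrays. Gcnt1, a glycosyltransferase, had -0.88, -1.92, -2.37 and -0.81 without and -0.78, -0.72, -1.28 and 0.30 with 4PBA, and its groups overlapped too. Cyp27a1, a sterol 27-hydroxylase, had -4.91, -4.86, -4.20 and -4.00 without and -2.44, -3.47, -3.84 and -3.52 with 4PBA, where all treated arrays were higher, those of the numbered slide by more. Shisa3 had a change of 0.94.

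The 2 highest values of this ranking rested on single probes. Grn, which encodes the lysosomal protein progranulin, had a 4PBA change of 1.64 on its brightest probe, with 4.88, 3.29, 6.39 and 7.19 without and 6.59, 6.93, 7.39 and 7.38 with 4PBA. Its other 2 probes changed by -0.18 and -0.04. Syt10, a synaptotagmin, had 2.61 on its brightest probe and -0.03 on its other. The brightest probes of these 2 genes were low on the same arrays, control array 1 and KO arrays 1 and 2 without 4PBA. On the lettered slide both were lowest on KO array a without 4PBA, at 6.39 for Grn and -0.52 for Syt10. The other lettered arrays had at least 7.19 and 1.31.

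The 10 lowest were Gpx3, Ccl3, C4a, Itgad, Tmem202, Apoc1, Dach2, Fcgr2b, Slc43a3 and Optc, with changes from -1.31 to -0.92. Of these, 9 were raised by the KO without 4PBA at an adjusted p under 0.05, the other being Itgad, where 5.26% of all genes were called higher. Both contrasts use the KO arrays without 4PBA and the ranking includes the array labelled KO 4PBA b, so nothing is read from this count. Ccl3, a chemokine of activated microglia, had -2.06, -2.01, -2.65 and -2.49 without 4PBA and -2.11, -2.56, -3.48 and -5.67 with it, against -6.07, -5.69, -6.10 and -7.01 in controls, where 1 of the 8 control arrays was well above background. Arrays 1 and 2 overlapped the KO arrays without 4PBA, array a lay below them and the array labelled KO 4PBA b was near the controls. Its change was -1.15 (SE 0.50) with and -0.61 (SE 0.47) without that array, neither called. C4a, a complement component, had -3.06, -3.28, -2.19 and -2.80 without and -3.50, -3.50, -3.21 and -5.59 with 4PBA. On arrays 1 and 2 it lay below every KO array without 4PBA, but without array b its change was -0.52 (SE 0.18, adjusted p 1.0 in limma). Fcgr2b, an inhibitory Fc receptor, had -3.00, -2.39, -1.63 and -2.59 without and -2.87, -3.25, -3.03 and -4.22 with 4PBA, where array 1 overlapped.

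Of the 16 strongest knockout changes, 8 in each direction, 15 were also called under 4PBA without the array labelled KO 4PBA b. The exception was Car4 (adjusted p 0.0638 in limma), and Ackr4, though called, lay between KO and control on the numbered slide. Among genes well above background on all 16 arrays, the KO without 4PBA changed 207 at least 2-fold, these 16 included. With all arrays 0 of the 207 were called under 4PBA. The 8 most raised genes measured on all 16 arrays were Gdf15, Cox6a2, Cxcl10, Slc7a3, Trib3, Zcchc12, 9330179D12Rik and Eif4ebp1. Gdf15, a stress hormone induced by CHOP and ATF4, had 0.67, 0.22, 0.30 and 0.42 on KO arrays without 4PBA, 0.02, 0.24 and 0.40 on KO 4PBA arrays 1, 2 and a, and -4.85 on the array labelled KO 4PBA b. Controls without 4PBA had -3.98, -3.83, -3.82 and -4.63. Its 4PBA change of -1.45 (SE 0.74, adjusted p 0.775 in limma) became -0.14 (SE 0.29, 95% interval -0.75 to 0.48) without that array. With all arrays its KO effect was 4.46 (SE 0.74) without and 2.99 (SE 0.74, adjusted p 0.133 in limma) under 4PBA. Without the array labelled KO 4PBA b it was 4.46 (SE 0.26) and 4.30 (SE 0.29, adjusted p 3.34e-06 in limma).

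Trib3, a pseudokinase induced by CHOP, had 1.73, 1.17, 1.81 and 1.85 without 4PBA, 1.68, 1.71 and 1.05 on KO 4PBA arrays 1, 2 and a and -2.11 on the array labelled KO 4PBA b. Without array b its KO effect was 3.32 (SE 0.16) without and 3.13 (SE 0.18) under 4PBA, a difference of -0.19 (95% interval -0.70 to 0.32). Slc7a3, a transporter of cationic amino acids, had 2.98, 2.72, 2.99 and 2.88 without and 2.68, 2.93, 2.53 and -0.58 with 4PBA. Cox6a2, the muscle form of a cytochrome c oxidase subunit, had 2.56, 2.19, 2.65 and 2.62 without and 2.21, 2.42, 2.71 and -0.95 with 4PBA. In all these genes the array labelled KO 4PBA b was the only treated array near the controls. Without it the differences of the KO effect were -0.28 for Slc7a3 (95% interval -1.58 to 1.02), -0.03 for Cox6a2 (-0.75 to 0.69) and 0.05 for Cxcl10 (-1.45 to 1.54), intervals wide enough to hold a change of about 1 or more in Slc7a3 and Cxcl10.

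The 8 most lowered were Sh3bgr, Pappa, Stap2, Ackr4, Cabp2, Car4, Sema3e and A230028O05Rik. Sh3bgr, a small protein with a glutaredoxin-like fold, had 0.39, 0.60, -0.17 and 0.45 without 4PBA and 0.47, 0.57 and 0.38 on KO 4PBA arrays 1, 2 and a, with 2.18 on the array labelled KO 4PBA b and 2.44, 2.27, 2.40 and 2.18 in controls. Without array b its KO effect was -2.0 (SE 0.13) without and -1.88 (SE 0.15) under 4PBA, a difference of 0.12 (95% interval -0.31 to 0.55). Sema3e, a secreted axon guidance protein, had -1.70, -1.67, -2.10 and -1.79 without and -1.54, -1.83, -1.71 and -0.32 with 4PBA. For all 16 of these genes the KO effect under 4PBA had the same sign as without it.

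**Figure D3:**
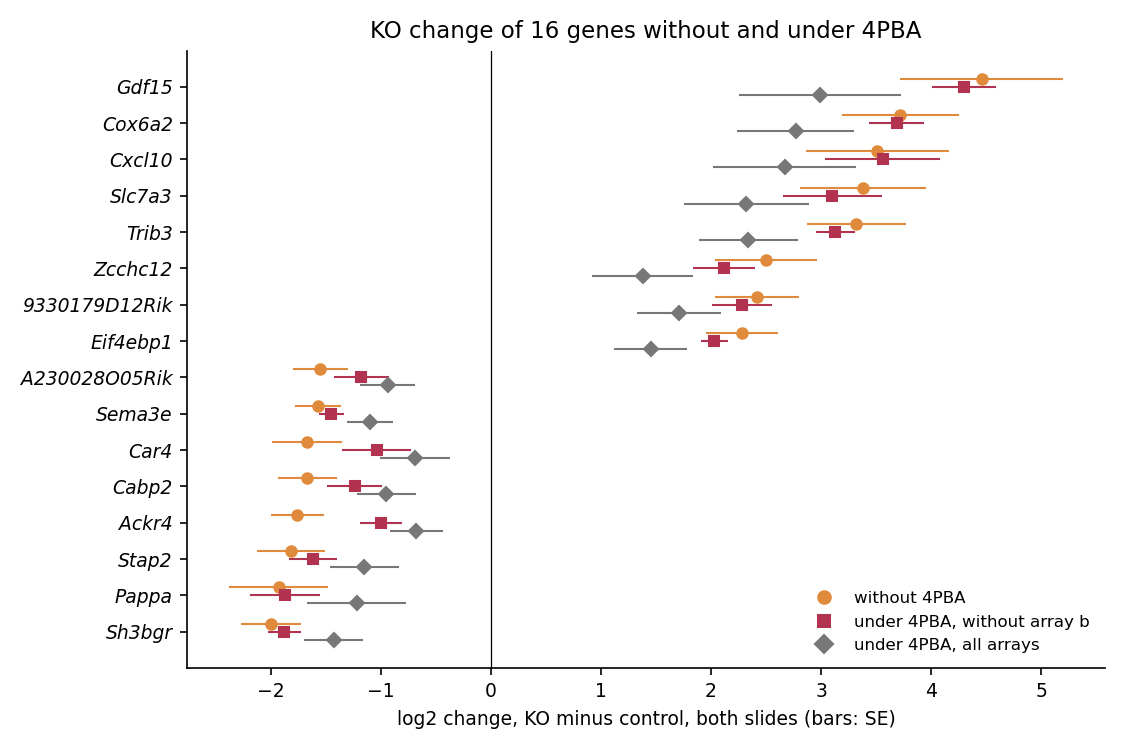
Log2 change of KO against control, averaged over both slides with SE bars, for the 8 genes most raised and the 8 most lowered by the KO, without 4PBA (circles), under 4PBA without the array labelled KO 4PBA b (squares) and under 4PBA with all arrays (diamonds). Leaving out that array moves Gdf15 under 4PBA from 2.99 to 4.30, beside 4.46 without 4PBA.

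Over all genes, the number of KO changes called under 4PBA turned on that array. Of the 1800 genes that the KO changed without 4PBA, 1 was also called under it with all arrays. Of 316 changed at least 2-fold, 0 were called under 4PBA with all arrays, though 303 had the same direction. With all arrays 8 genes were called under 4PBA (0.0472%), between 8 and 30 without any 1 of the other 7 arrays, and without the array labelled KO 4PBA b 1047 (6.18%), 595 higher and 452 lower. In the same fit the KO without 4PBA changed 2156 genes (12.7%), and 883 were called in both, all in the same direction: 41% of those called without 4PBA and 84.3% of those called under it. These 2 comparisons use different arrays. Of 339 genes that the KO changed at least 2-fold without 4PBA, 229 were called under it and 328 had the same direction.

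ER chaperones and folding enzymes, the targets of ATF6 and XBP1, were raised by the KO without 4PBA in 15 of 16 genes, where 5.26% of all genes were called higher. Those whose promoters held the ER stress response element (ERSE), the site bound by ATF6 with NF-Y, are shown because this group moved together. The letters CCAAT, then 9 bases of any kind, then CCACG were searched on both strands from 250 bases before to 50 after each start, in RefSeq promoters of GRCm38.p6. They were found in 6 of the 13 listed genes that had a window (46.2%) and in 0.137% of 27025 genes. The stretches run 5′ to 3′ along the gene and stop before its start, with the match in capitals.
Hspa5: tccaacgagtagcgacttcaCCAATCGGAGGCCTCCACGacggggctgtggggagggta
Hsp90b1: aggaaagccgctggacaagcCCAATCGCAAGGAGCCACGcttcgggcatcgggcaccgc
Pdia6: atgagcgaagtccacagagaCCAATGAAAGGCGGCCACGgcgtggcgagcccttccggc
Dnajc3: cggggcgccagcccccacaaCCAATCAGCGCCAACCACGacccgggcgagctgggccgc
Calr: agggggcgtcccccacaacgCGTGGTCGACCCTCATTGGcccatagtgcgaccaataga
Creld2: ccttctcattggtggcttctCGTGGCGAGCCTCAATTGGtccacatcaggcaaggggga
Derl3: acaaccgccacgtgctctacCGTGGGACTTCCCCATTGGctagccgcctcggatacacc

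These lie at chr2:34772005-34772063 on the plus strand for Hspa5, chr10:86705618-86705676 on the minus strand for Hsp90b1, chr12:17266471-17266529 on the plus strand for Pdia6, chr14:118937807-118937865 on the plus strand for Dnajc3, chr8:84847055-84847113 on the minus strand for Calr, chr15:88819500-88819558 on the plus strand for Creld2 and chr10:75893222-75893280 on the plus strand for Derl3, which belongs to the degradation list. Hsp90b1 held a second match nearer to its start. In Calr, Creld2 and Derl3 the match is on the opposite strand.

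Hspa5 encodes BiP, the main ER chaperone and sensor of unfolded proteins. It had 5.75, 5.55, 5.33 and 5.63 on KO arrays without 4PBA, 5.50, 5.69 and 5.32 on KO 4PBA arrays 1, 2 and a, and 4.29 on the array labelled KO 4PBA b, against 4.35, 4.52, 4.28 and 4.18 in controls. Arrays 1 and 2 lay among the KO arrays without 4PBA, and array a at 5.32 just below the lowest of them at 5.33. Arrays 1, 2 and a all stood above every control. The 4PBA change was -0.37 (SE 0.18, adjusted p 0.768 in limma) with all arrays and -0.11 (SE 0.14, 95% interval -0.41 to 0.19) without that array, and the KO effect under 4PBA was then 1.02 (SE 0.14, adjusted p 0.000894 in limma). Creld2, a secreted ER stress protein, had 4.09, 3.89, 4.13 and 4.72 without and 3.84, 4.08, 4.28 and 3.03 with 4PBA. Pdia6, a disulfide isomerase, had 5.11, 4.84, 4.28 and 4.83 without and 4.90, 5.08, 4.33 and 3.47 with it.

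Over the list of 16, no gene was called for 4PBA in KO mice, and all 16 had a lower level with 4PBA, both with all arrays (median -0.29) and without the array labelled KO 4PBA b (median -0.08), where the median over all genes was -0.01 in both. Of these, 11 were lower and 5 higher on the numbered slide alone, with a median of -0.02. In controls the median 4PBA change was 0.10, with 11 higher and 5 lower. The change of the KO effect was therefore larger, with a median of -0.34 with all arrays and -0.20 without the array labelled KO 4PBA b. It was negative for all 16 in both, and with all arrays it was called for 0. The list median above the slide's controls was 0.84, 0.78, 0.74 and 1.02 on KO arrays without 4PBA and 0.65, 0.79, 0.76 and 0.03 on KO 4PBA arrays 1, 2, a and b. Under 4PBA without array b, 13 of 16 were still called higher in KO than in control, where 3.51% of all genes were. The other 3 were the stress sensors Atf6 and Ern1 and the transcription factor Xbp1. With all arrays 0 of the 16 were called under 4PBA, where 0.0472% of all genes were. The median KO effect under 4PBA was then 0.54, with 15 of 16 higher.

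Among the genes of ATF4 and CHOP the array labelled KO 4PBA b was again the lowest of the KO arrays, with a list median of -0.15 above the slide's controls. KO arrays 1, 2, a and b without 4PBA had 0.92, 0.76, 1.07 and 1.23, and KO 4PBA arrays 1, 2 and a 0.94, 1.07 and 0.82. Their C/EBP-ATF response element (CARE), searched as TGATGNAAN on both strands of the same windows, was found in 9 of the 24 listed genes with a window (37.5%) and in 4.5% of all, and no gene of this list held the ERSE letters nor any chaperone the CARE letters. It is shown for 3 genes of the list that the KO raised.
Asns: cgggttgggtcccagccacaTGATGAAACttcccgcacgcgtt
Chac1: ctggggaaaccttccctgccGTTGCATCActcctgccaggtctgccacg
Atf3: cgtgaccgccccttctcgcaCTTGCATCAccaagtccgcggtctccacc

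The stretches lie at chr6:7693210-7693252 on the minus strand for Asns, chr2:119351028-119351076 on the plus strand for Chac1 and chr1:191183416-191183464 on the minus strand for Atf3, in Chac1 and Atf3 with the match on the opposite strand. Chac1, an enzyme that breaks down glutathione, had 2.47, 1.83, 3.21 and 3.81 on KO arrays without 4PBA and 2.76, 2.45, 2.98 and 0.76 with it, against 0.44, 0.60, 0.55 and 0.98 in controls. Asns, asparagine synthetase, had 5.23, 4.86, 4.79 and 5.23 without and 5.25, 5.37, 4.70 and 3.90 with 4PBA. Atf3, a transcription factor downstream of ATF4, had -1.21, -1.38, -0.71 and -0.62 without and -1.28, -1.41, -0.60 and -3.39 with it. In Chac1 treated arrays 1, 2 and a overlapped the KO arrays without 4PBA. In Atf3 array 1 lay among these, array 2 just below all of them and array a just above. In Asns arrays 1 and 2 lay above all KO arrays without 4PBA and array a below all of them. In all 3 genes arrays 1, 2 and a stood above every control without 4PBA. Ddit3, which encodes CHOP, had 0.72, 0.59, 1.55 and 1.50 without and 0.57, 0.72, 1.16 and -0.31 with 4PBA. Fgf21, a stress hormone, had -1.87, -2.0, -2.91 and -1.28 without and -1.41, -1.30 and -1.46 on KO 4PBA arrays 1, 2 and a, all higher than the former except KO array b without 4PBA, and was not well above background on the array labelled KO 4PBA b.

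Of 25 ATF4 and CHOP genes measured, none was called for 4PBA in KO mice. The median change was -0.30 with all arrays, with 24 lower, and -0.07 without the array labelled KO 4PBA b, with 19 lower and 6 higher. It was 0.04 on the numbered slide. With all arrays the KO without 4PBA raised 18 (5.26% of all genes) and lowered 1 (5.37%). Under 4PBA with all arrays the KO raised 0 and lowered 0, with a median KO effect of 0.64. In the fit without the array labelled KO 4PBA b it raised 21 without 4PBA (6.52% of all genes) and 20 under it (3.51%). Slc7a5, an amino acid transporter, was the 1 gene lowered under 4PBA in that fit (2.67% of all genes).

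Of the genes of ER-associated degradation itself, 19 were measured. The KO without 4PBA raised 7, where 5.26% of all genes were called higher, and lowered 1, where 5.37% were called lower. The lowered gene was Vcp, the ATPase that extracts proteins from the ER membrane. Herpud1, which organises the degradation complex, had 3.91, 3.69, 3.83 and 3.82 without 4PBA and 3.78, 3.76, 3.44 and 2.38 with it, against 2.69, 2.55, 2.29 and 2.41 in controls. Its 4PBA change was -0.47 (SE 0.16, adjusted p 0.717 in limma), and -0.21 (SE 0.08, adjusted p 1.0 in limma) without the array labelled KO 4PBA b. Edem1, a lectin that directs glycoproteins to degradation, had -0.76, -0.78, -0.20 and -0.07 without and -0.89, -0.78, -0.35 and -0.97 with 4PBA. Without array b its KO effect under 4PBA was 0.67 (SE 0.10, adjusted p 0.00221 in limma). In the fit without the array labelled KO 4PBA b, 7 of 19 were called higher in KO without 4PBA, where 6.52% of all genes were, and 3 under it, where 3.51% were. With all arrays 0 of 19 were called under 4PBA. The list median of the 4PBA change was -0.07, and -0.05 without array b.

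**Figure D4:**
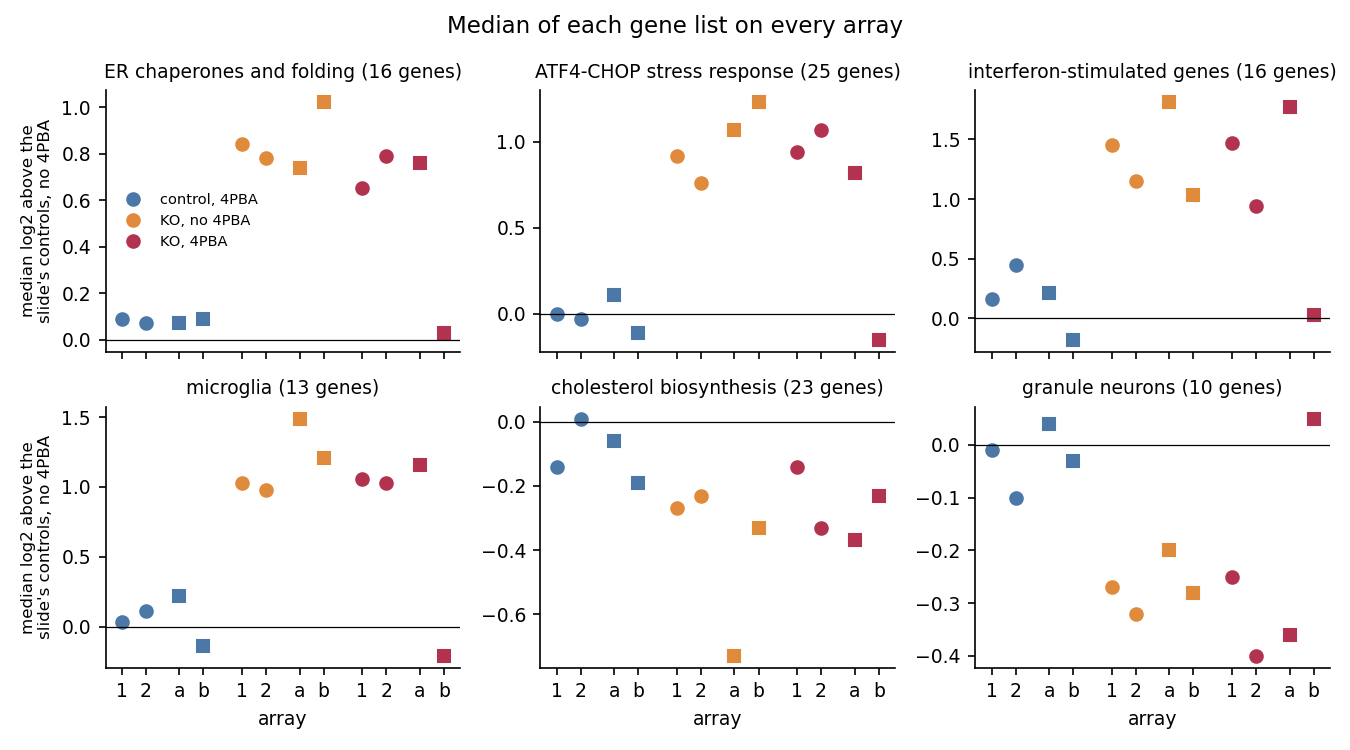
Median log2 intensity of 6 gene lists on every control array with 4PBA and every KO array, relative to the mean of the slide's controls without 4PBA, with circles for the numbered and squares for the lettered slide. In the stress, interferon and microglia lists KO 4PBA arrays 1, 2 and a lie beside the KO arrays without 4PBA, and array b lies near 0, for example at -0.15 against 0.94, 1.07 and 0.82 in the ATF4-CHOP list.

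Cholesterol biosynthesis genes were lowered by the KO without 4PBA, 15 of 23 where 5.37% of all genes were called lower. The list median below the slide's controls was -0.27, -0.23, -0.73 and -0.33 on KO arrays without 4PBA and -0.14, -0.33, -0.37 and -0.23 on KO 4PBA arrays 1, 2, a and b, so that treated and untreated arrays overlapped and KO array a without 4PBA was lowest. The 4PBA change had a median of 0.15, with 19 higher and none called, and of 0.10 without the array labelled KO 4PBA b, with 18 higher. On the numbered slide it was 0.03, and in controls -0.11. In the fit without the array labelled KO 4PBA b, the KO lowered 15 of 23 without 4PBA, where 6.21% of all genes were called lower, and 3 of 23 under it, where 2.67% were. With all arrays the KO lowered 0 of 23 under 4PBA at an adjusted p under 0.05. The change of the KO effect itself was positive for 21 of the 23 without array b, with a median of 0.19. With all arrays it was positive for 22 with a median of 0.22, beside medians of 0 and -0.01 over all genes. It was called in limma for 0 of the 23, with 0 at an unadjusted p under 0.05 without array b, where 1.88% of all genes were. Stard4, a sterol carrier, had 0.52, 0.37, -1.08 and -0.30 without and 0.63, 0.62, -0.40 and 0.33 with 4PBA, against 1.0, 1.03, 0.41 and 0.46 in controls. Within each slide the treated arrays lay above the KO arrays without 4PBA, except that array a lay below KO array b without it. Its 4PBA change was 0.41 (SE 0.15, adjusted p 0.734 in limma), and 0.23 (95% interval -0.06 to 0.53) without array b. Cyp51, a demethylase of the sterol pathway, had 1.07, 0.98, 0.49 and 1.11 without and 1.21, 1.11, 1.09 and 1.52 with 4PBA. Without array b its KO effect was -0.81 (SE 0.12) without and -0.56 (SE 0.13, adjusted p 0.026 in limma) under 4PBA.

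Markers of other cells in the cerebellum were read in the same way. In bulk tissue, fewer cells of a type and less RNA per cell cannot be told apart. Microglia markers were raised by the KO in 10 of 13 genes without 4PBA, where 5.26% of all genes were called higher. Under 4PBA without the array labelled KO 4PBA b it was again 10 of 13, where 3.51% were. With all arrays 0 of the 13 were called under 4PBA, where the median KO effect was 0.87. The list median was 1.03, 0.98, 1.49 and 1.21 on KO arrays without 4PBA and 1.06, 1.03, 1.16 and -0.21 on KO 4PBA arrays. Trem2, a lipid receptor of microglia, had 1.63, 1.60, 2.09 and 1.68 without and 1.74, 1.34, 1.58 and -0.26 with 4PBA, with a 4PBA change of -0.19 (95% interval -0.51 to 0.13) without array b. The homeostatic markers Tmem119 and P2ry12 were called under neither condition. Interferon-stimulated genes had list medians of 1.45, 1.15, 1.81 and 1.03 without and 1.47, 0.94, 1.77 and 0.03 with 4PBA. All 16 were lower with 4PBA with all arrays (median -0.33), whereas 12 were higher without the array labelled KO 4PBA b (median 0.10). The slides differed: 12 were lower on the numbered slide (median -0.20). On the lettered slide without array b, where array a alone remained, 13 were higher (median 0.37). The change of the KO effect had a median of -0.54 with all arrays, with 16 negative, and of -0.07 without array b, with 10 negative. Cxcl10, a chemokine induced by interferon, had -1.09, -1.13, -0.25 and -1.37 without and -0.64, -1.85, -0.91 and -4.44 with 4PBA. Gfap, the intermediate filament of reactive astrocytes, had 2.83, 2.87, 3.47 and 3.28 without and 3.14, 2.76, 2.96 and 1.88 with 4PBA, against 1.48, 1.84, 2.11 and 2.05 in controls. Arrays 2 and a lay below the KO arrays without 4PBA of their own slide, and array 1 above.

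Granule neuron markers, which mark the most numerous neurons of the cerebellum, had list medians of -0.27, -0.32, -0.20 and -0.28 without and -0.25, -0.40, -0.36 and 0.05 with 4PBA. Gabra6, a GABA receptor subunit of these cells, had 3.64, 3.54, 3.58 and 3.99 without and 3.77, 3.60, 3.96 and 4.72 with 4PBA, against 4.31, 4.21, 4.68 and 4.59 in controls. Without array b its KO effect was -0.76 (SE 0.10) without and -0.72 (SE 0.12, adjusted p 0.00258 in limma) under 4PBA. Purkinje cell, oligodendrocyte and astrocyte lists had median 4PBA changes of -0.04, -0.12 and -0.03 without array b, with no gene called. Among the oligodendrocyte genes all 12 were lower with 4PBA on the numbered slide (median -0.17), where the median over all genes was -0.03. On the lettered slide without array b 7 were lower and 5 higher. Olig2, the transcription factor of the lineage, was raised by the KO by 0.41 (SE 0.10, adjusted p 0.0236 in limma). It had -1.08, -0.80, -0.79 and -0.67 without and -1.13, -0.99, -1.44 and -1.16 with 4PBA, and its 4PBA change was -0.35 (SE 0.10, adjusted p 0.666 in limma).

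Choroid plexus genes, whose epithelium lines the ventricles beside the cerebellum, had the largest median 4PBA change of the 17 lists, 0.96 with all arrays and 0.91 without the array labelled KO 4PBA b, with 9 of 9 higher and none called. The list median ranged from -2.25 to 1.28 over the KO arrays without 4PBA and from 0.08 to 1.02 over those with it. Ttr, the thyroid hormone carrier made by this tissue, had 3.36, 7.80, 6.70 and 0.49 without and 7.40, 7.44, 5.70 and 5.96 with 4PBA, and 6.32, 7.09, 6.89 and 3.04 in controls. The spread within the groups without 4PBA was wider than the difference between the groups. Blood cell genes had median changes of 0.42 and 0.33, and genes of vessels and meninges of -0.10 and -0.02, with and without array b and with none called.

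Of 4 further lists, 3 had median 4PBA changes near 0 in both genotypes and the immediate early genes did not in controls. The 11 histone deacetylases had a median 4PBA change of -0.02 in KO mice with and without the array labelled KO 4PBA b, and none was called. Hdac4 had 0.16, 0.18, 0.38 and 0.36 without and 0.16, 0.35, 0.05 and 0.13 with 4PBA. The 20 genes of fatty acid oxidation and PPAR targets had a median of -0.02, and 0.01 without array b. Cytosolic heat shock genes had 0.08 and 0.07, with 11 and 10 of 15 higher. Immediate early genes had medians of 0.00 and 0.08 in KO mice, and -0.30 in controls, where 15 of 16 were lower with 4PBA. In the fit without array b 6 of the 16 had an unadjusted p under 0.05 in controls, where 2.23% of all genes did. In KO mice the median was -0.11 on the numbered slide and 0.29 on the lettered slide without array b, with 14 of 16 higher there. The 4PBA effect in KO minus that in controls had a median of 0.40, or 0.41 without array b, with 14 of 16 higher in both. Without array b 5 of the 16 had an unadjusted p under 0.05 for it, where 1.88% of all genes did. No gene of these 4 lists was called for 4PBA in KO mice or in controls. Fos, the best known immediate early gene, had 0.43, 2.41, 0.09 and 1.68 on KO arrays without 4PBA and 2.14, 0.43, 2.40 and 0.76 with it, so that its groups overlapped throughout.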

How the data were processed

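Cerebellar RNA was measured on 1-colour Agilent arrays, 24 in 12 groups of 2. The authors deposited scanner intensity values from Agilent Feature Extraction 10.7.1.1, per the file headers, with background-corrected processed signals. The authors' value table holds the same processed signals on a linear scale, within 1.74e-06 log2 units of the scanner files, and was not used further. Levels were log2 of the processed signal minus the array's 75th percentile over spots that are not controls, leaving out outlier spots. No spot was saturated.

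A probe was kept if well above background on both arrays of at least 1 group. Of 56605 probes, 32994 matched a gene symbol through their RefSeq accession; 38115 were kept, and the brightest probe stood for each of 16935 genes. The group means model was fitted to all 24 arrays with limma 3.58.1 in R 4.3.3 (with version 1.17.8 of data.table), with 12 residual degrees of freedom, or 11 without the array labelled KO 4PBA b. P-values were adjusted by Benjamini-Hochberg over all genes. The script was tested on simulated data.

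Named genes were those called for 4PBA, the 10 highest and 10 lowest 4PBA changes, the 8 highest and 8 lowest KO changes, the 4 largest KO changes of each list, and Derl1, Derl2 and Derl3; other list members were named after their values were seen. The comparison and its lists were chosen with earlier results of these data known. Alternatives were normexp background correction with an offset of 50, quantile normalization, other filters, probe means, the 16 Derlin-1 line arrays alone, a replicate block and leaving out each array. Normexp used median signals, since the mean signal column was not used here. Promoters came from RefSeq (GRCm38.p6). Some list results are not reported here.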

Additional observations from a re-analysis of the deposited data

Results flagged for a closer look

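The 126 named genes and list medians were examined over the 4 KO arrays with 4PBA and again over the 4 without, and a value was picked out where its gap to the nearest other array was above the critical share of the whole range (Dixon's test at 95%). Chance alone picks out about 1 in 20 such groups, but many of these genes were chosen for their KO or 4PBA change, they vary together, and the array labelled KO 4PBA b was singled out beforehand. The counts are therefore a description and no test of that array. With 4PBA 22 were picked out, 19 of them for the array labelled KO 4PBA b, 2 for array a and 1 for array 2. Without 4PBA 6 were picked out, 3 of them for array a and 1 each for arrays 1, 2 and b. All values below are log2 levels above the mean of the slide's controls without 4PBA.

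On the array labelled KO 4PBA b, genes that the KO raised lay near the control level. Gdf15 was at -0.62, Cox6a2 at 0.04, Slc7a3 at 0.08, Trib3 at 0.03 and Zcchc12 at -0.35. The ER genes Hspa5, Creld2, Herpud1, Edem1 and Derl3 were at 0.06, 0.08, 0.03, 0.17 and -0.42. The complement gene C4a was at -0.89, and the microglia list had a median of -0.21. Genes that the KO lowered were also near the controls there, with Sh3bgr at -0.11, Cabp2 at -0.15 and Stap2 at 0.30. Ttr was at 1.0. Obox5, which was not well above background on this array or on any control, was at 0.14. The immediate early genes had a median of -0.75 and Egr2 was at -0.89, both below the controls.

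Array a with 4PBA stood apart in Trpv6, at 1.43, and in Gm29999, at 3.25. Gm29999 was well above background on that array alone of the 16, so 3.25 is no size of effect. Array 2 with 4PBA stood apart in Fabp7, at -0.80. Among arrays without 4PBA, Cox6a2 was at 4.0 on array 1, Tmem202 at 3.08 on array 2, Derl3 at 1.76, Hdac7 at 0.78 and Idi1 at -1.42 on array a, and Cdh5 at 0.08 on array b.

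The 4PBA effect in KO mice differed between the slides, lettered minus numbered, for 1700065J11Rik by 3.82 and for Gm28729 by -4.49 with all arrays, and for Gm28729 by -4.52 and Gm29999 by 2.82 without the array labelled KO 4PBA b. It differed between KO and control mice for Gm28729 by 1.88 and Olfr769 by 1.78 with all arrays. Without that array it differed for Cnih3 by 1.31, Gm28729 by 1.86, Gm29999 by 1.53, Obox5 by 3.71 and Olfr769 by 1.77. Cnih3 was the only one of these genes measured well above background on all 16 arrays. The others were well above background on at most 3 of the 16 arrays (Olfr769 on no KO array), so their fitted differences depend on signals near background and are no sizes of effect.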

How the results depend on the processing

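Under the alternatives the 4PBA change in KO mice was recomputed for the genes called for it, its 10 highest and 10 lowest genes and the 16 strongest KO changes, and the KO effect without 4PBA for those 16. No called value among these turned its direction. Other gene values were not recomputed beyond leaving out the array labelled KO 4PBA b. With normexp background correction 0 genes were called in limma for 4PBA in KO mice on both slides (1113 at an unadjusted p under 0.05), the slide difference (557), 4PBA in controls (261), the change of the KO effect (373) and the KO under 4PBA (2094). Quantile normalization gave 12 calls on the numbered and 1 on the lettered slide, and the mean of all probes 12 on the numbered slide. Without the filter on dim probes the counts were 13 for both slides, 13 for the numbered and 4 for the lettered slide, 4 for the slide difference, 9 in controls, 7 for the change of the KO effect and 15 for the KO under 4PBA. Over probes well above background on all 16 arrays these were, in the same order, 1 (970 unadjusted), 0 (248), 1, 0 (461), 0 (227), 0 (340) and 1, where fewer genes were tested. With only the 16 Derlin-1 line arrays fitted, 690 genes were called for the KO without 4PBA. No label says what a shared number or letter marks. Deviations of arrays with the same one correlated from -0.22 to 0.53 between groups of a slide, above 0.1 in 9 of 12 pairs of groups, so pairing was neither taken as given nor shown to be absent. With a replicate block 1571 genes had an unadjusted p under 0.05 for 4PBA in KO mice (1127 without), 2 genes were called on the numbered slide, 1 for the slide difference and 3 in controls. With knockout lists of 50 or 200 genes the lower genes read on the numbered slide had a median change of 0.04 in place of 0.06. Leaving out 1 array at a time gave from 3 to 193 calls for 4PBA in KO mice, 10 to 37 on the numbered and 1 to 459 on the lettered slide, 1 to 88 for the slide difference, 3 to 25 in controls, 2 to 31 for the change of the KO effect, 654 to 2788 for the KO without and 8 to 1047 under 4PBA. Without the array labelled KO 4PBA b the list medians were -0.16 and 0.16 on the lettered and -0.12 and 0.06 on the numbered slide. The cause of these shifts was not tested. The median SE of a 4PBA change was 0.11 over both slides and 0.15 on 1 slide, with 2 arrays in each group, which limits what could be called. Leaving out that array leaves 1 lettered KO 4PBA array, which is then assumed to vary like the other groups.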

Other observations

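The genes next in order of p for 4PBA in KO mice, without the array labelled KO 4PBA b, were listed after their values were seen, and none was called (adjusted p in limma from 0.249 to 0.737). They included 3 homeobox genes, Zfhx3, Zfhx4 and Six3, and Asic4, which encodes a relative of the acid-sensing ion channels. Asic4 had -1.76, -1.87, -2.66 and -2.19 on KO arrays 1, 2, a and b without 4PBA and -1.52, -0.70, -0.56 and -2.63 with it. Six3, a homeobox factor of the anterior forebrain, had -3.87, -3.99, -5.01 and -4.85 without and -3.91, -3.45, -2.08 and -4.64 with 4PBA. In both genes array a had the highest level of the 4 treated arrays, as it had for Nrgn, Tcf7l2 and Trpv6. On the numbered slide alone the change was 0.71 for Asic4 and 0.25 for Six3, beside 1.29 and 1.55 over both slides without the array labelled KO 4PBA b.

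Keap1, the sensor that restrains the oxidative stress factor NRF2, had 1.71, 1.60, 2.08 and 1.97 without and 1.43, 1.42, 1.73 and 1.72 with 4PBA, so that within each slide both treated arrays lay below both untreated ones. Its change was -0.26 with all arrays and without the array labelled KO 4PBA b, beside -0.10 in controls. Adrb1, the beta-1 adrenergic receptor, had -1.78, -1.61, -1.27 and -2.16 without and -2.23, -2.07, -2.79 and -2.49 with 4PBA, again lower on both slides. Its change was -0.69 over all arrays and 0.34 in controls. Controls without 4PBA had -2.28, -2.15, -2.84 and -3.07, below the matching KO arrays. Efcab2 had 0, 0.06, -1.13 and -1.17 without and -0.26, -0.42, -1.58 and -1.94 with 4PBA, against -0.11, -0.27, -1.70 and -1.60 in controls. The change of Efcab2 was -0.49 over all arrays and -0.22 in controls.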
